A study of Mus musculus with 18 samples.

Results

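The 8 genes described here encode costimulatory and checkpoint ligands that macrophages show to lymphocytes: Cd40, Cd80, Cd83, Cd86, Cd274, Pdcd1lg2, Icosl and Icam1. They were chosen by name, and all 8 were found among the 54532 genes of the count table. Polyadenylated RNA was sequenced from macrophages grown out of tibial marrow from mice aged 2 to 3 months. Marrow cells spent 24 h with 15% serum, CSF-1 at 12 ng/ml and WEHI-3 conditioned medium, which supplies interleukin-3. Those that had not adhered were then cultured for 48 h with CSF-1 at 120 ng/ml. Both genotypes carried loxP-flanked Smad1 (Smad1 fl/fl), and one of them also carried LyzM-Cre, which expresses Cre recombinase from the lysozyme M gene in myeloid cells (MyS1KO). Serum was withdrawn for about 16 h. The cells then received TGF-β1 at 10 ng/ml, BMP4 at 50 ng/ml or neither for 4 h, which gave 6 groups of 3 libraries. The study asked how macrophages with and without Smad1, a transcription factor downstream of BMP receptors, respond to each factor.

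CD80 and CD86 are B7 proteins that bind CD28 and CTLA-4 on T cells, and so deliver costimulation or its restraint. PD-L1, encoded by Cd274, and PD-L2, encoded by Pdcd1lg2, bind PD-1 and dampen T cell activity, whereas ICOS ligand, encoded by Icosl, engages ICOS on activated T cells. CD40 is a receptor of the TNF receptor family that answers CD40 ligand on helper T cells, CD83 marks activated antigen-presenting cells and keeps MHC class II and CD86 at the surface, and ICAM-1 binds the integrin LFA-1. In macrophages many of these genes respond to interferons, bacterial products and NF-κB, while TGF-β is known as a factor that restrains activation.

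Library totals lay between 15153296 and 24639163 counts. At that depth 3 counts, taken as the detection floor, stood for 0.122 to 0.198 CPM (each count scaled to a common library total). Smad1 itself stood at 22.2 to 31.1 CPM in the 9 Smad1 fl/fl libraries and at 19.5 to 26.8 CPM in the 9 MyS1KO libraries. Untreated, the MyS1KO libraries lay lower without overlap (25.95 to 26.84 against 30.02 to 31.06 CPM). With BMP4 they did so too (24.27 to 26.22 against 27.6 to 31.03 CPM), and with TGF-β1 the labels overlapped. Of the 14684 genes tested, 1357 and 914 lay apart in this direction untreated and with BMP4. A count over the whole gene does not show whether the flanked part was removed. Lyz2, which the Cre allele is built into, did not follow the labels. It was at 37.6 to 74.3 CPM in the 3 Smad1 fl/fl libraries numbered 1, against at least 8118 CPM in every other library, and the MyS1KO libraries were the highest. The groups are therefore called floxed-labelled and knockout-labelled, and the floxed-labelled comparisons of the 8 were also fitted without the libraries numbered 1. Whether the 3 libraries of a group stem from different animals or cultures is not stated, so p-values measure only the spread between these libraries. The macrophage label was matched by high Csf1r, the CSF-1 receptor, at 4078 to 4981 CPM, and by Adgre1, which encodes F4/80, at 3429 to 4900 CPM.

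The B7 genes Cd80 (chr16:38455561-38496335, plus strand) and Cd86 (chr16:36603869-36666081, minus strand) share a chromosome in mm10, as do Cd274 (chr19:29367455-29388095) and Pdcd1lg2 (chr19:29410919-29471157). Cd40 lies at chr2:165055627-165072948, Cd83 at chr13:43784775-43803132, Icosl at chr10:78069302-78083913 and Icam1 at chr9:21015985-21028817, all on the plus strand, and all 8 genes are protein coding. Promoter sequences show what stands before the start sites of genes whose levels are compared below. RefSeq start sites on GRCm38.p6 were given for 5 of the 8 genes, Cd274, Cd80, Icam1, Icosl and Pdcd1lg2. Cd274 and Pdcd1lg2 are neighbours on chromosome 19, on the same strand, with 22.8 kb between the end of the first and the start of the second, and Icam1 is the gene with the highest level per length. The 250 bases before each of these 3 start sites are printed 5′ to 3′ on the gene's own (plus) strand, with matches to the NF-κB, GAS, ISRE or AP-1 motif in capitals.
Cd274, chr19:29367188-29367437: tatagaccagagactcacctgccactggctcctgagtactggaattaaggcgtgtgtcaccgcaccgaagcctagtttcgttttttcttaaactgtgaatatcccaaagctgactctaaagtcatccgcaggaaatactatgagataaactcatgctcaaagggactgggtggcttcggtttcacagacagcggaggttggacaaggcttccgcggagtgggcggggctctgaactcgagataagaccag
Pdcd1lg2, chr19:29410669-29410918: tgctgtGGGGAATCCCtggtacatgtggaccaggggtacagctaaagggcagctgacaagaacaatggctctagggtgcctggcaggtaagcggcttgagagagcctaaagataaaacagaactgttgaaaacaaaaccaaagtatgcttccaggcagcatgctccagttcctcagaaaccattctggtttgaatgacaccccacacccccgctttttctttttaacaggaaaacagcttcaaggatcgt
Icam1, chr9:21015690-21015939: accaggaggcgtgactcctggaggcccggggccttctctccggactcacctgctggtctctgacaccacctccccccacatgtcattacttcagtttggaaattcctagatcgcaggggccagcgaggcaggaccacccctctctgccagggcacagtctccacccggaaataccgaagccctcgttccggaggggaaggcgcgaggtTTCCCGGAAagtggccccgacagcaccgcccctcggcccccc

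The 10-letter NF-κB motif was GGG, then A or G, any 2 bases, 2 bases that are C or T, and CC. Searched on both strands, it matched at −244 to −235 of Pdcd1lg2 and at −111 to −102 of Icosl, counted from the start site. It stood in 7.25% of the 32851 promoter windows of the same length. The STAT motif GAS (TTCNNNGAA) matched at −42 to −34 of Icam1 and was found in 7.02% of windows. The AP-1 motif (TGANTCA) matched at −42 to −36 of Cd80 and was found in 6.75%. The interferon motif ISRE (GAAA, any 2 bases, GAAA), held by 2.98% of windows, had no match in these 5. The short Smad motif CAGAC, held by 42.2% of windows, matched at −66 to −62 of Cd274, where it is left in lower case because it is so frequent. The window of Cd80 (chr16:38458683-38458932) lies wholly within the annotated Cd80 gene, and that of Icosl reaches into the annotated Icosl gene. Neither is printed. A match describes letters and is no evidence of binding. A window without a match, such as that of Icam1 for NF-κB, can still hold sites that depart from the letters searched.

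Per length of transcript, Icam1 was the most abundant of the 8 in untreated macrophages and Pdcd1lg2 the least. FPKM, the deposited count scaled to gene length and library total, averaged 41.0 ± 6.18 (SD, n = 3) for Icam1 in floxed-labelled cells, 25.9 ± 3.58 for Cd83, 20.6 ± 3.58 for Cd274, 8.70 ± 2.01 for Icosl, 7.95 ± 2.03 for Cd40, 3.94 ± 0.369 for Cd80, 3.75 ± 1.72 for Cd86 and 0.703 ± 0.230 for Pdcd1lg2. Cd83 and Cd274, Icosl and Cd40, and Cd80 and Cd86 are neighbours in this order whose libraries overlapped. The knockout-labelled untreated cells gave the same order, from 41.2 ± 3.76 FPKM for Icam1 to 0.420 ± 0.0935 for Pdcd1lg2, with only Cd80 and Cd86 overlapping. The checkpoint ligand PD-L1 thus had several times the transcript per length of either B7 costimulator: the ratio of Cd80 to Cd274 was 0.161, 0.188 and 0.237 in the 3 untreated floxed-labelled libraries and 0.215, 0.180 and 0.202 in the knockout-labelled ones.

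**Figure D1:**
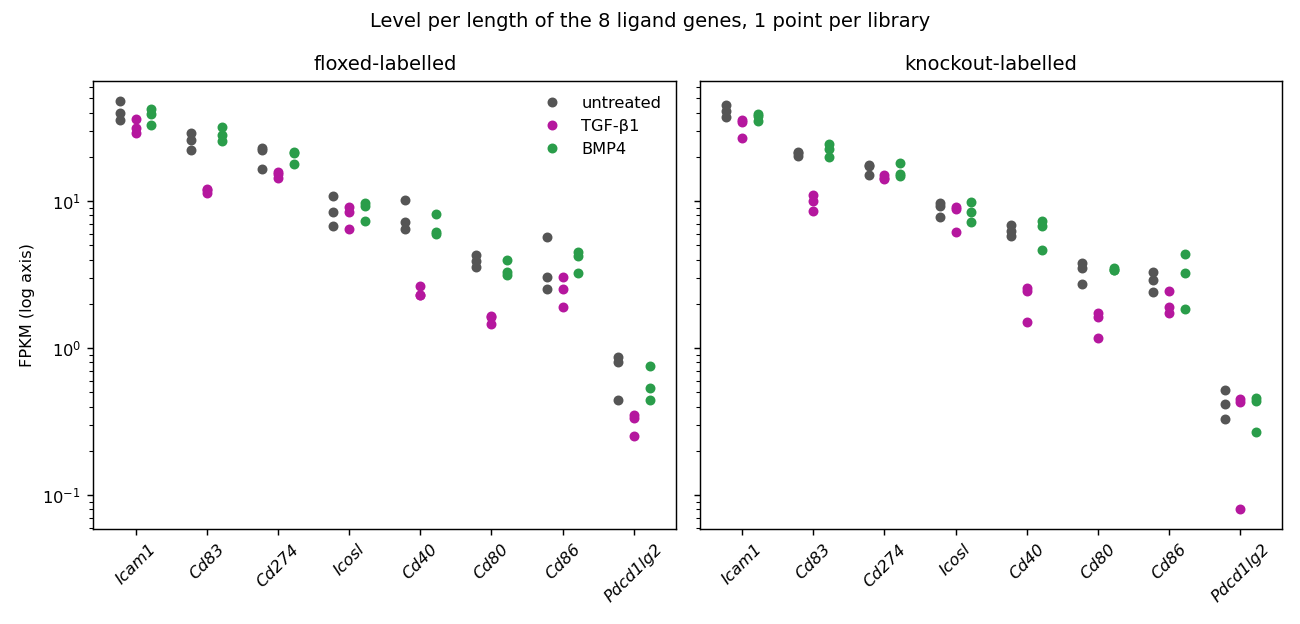
FPKM (log axis) of the 8 ligand genes in each library, 1 point per library, by treatment, with the floxed-labelled libraries on the left and the knockout-labelled ones on the right, and genes ordered by their untreated mean. Cd83 lies above Cd274 in untreated cells and below it with TGF-β1 in both genotype labels, while the Icosl points of the 3 treatments overlap.

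With TGF-β1, Cd40, Cd80, Cd83 and Icam1 were called lower in both genotype labels, and none of the 8 was called higher. The test was edgeR's quasi-likelihood F test over all 18 libraries, and a gene was called at a Benjamini-Hochberg adjusted p under 0.05 over the 14684 genes tested, among which were all 8. In floxed-labelled macrophages 6 of the 8 were called lower (Cd40, Cd80, Cd83, Cd274, Pdcd1lg2 and Icam1) and 0 higher, where 16% of all genes tested were called lower and 17% higher. In knockout-labelled macrophages 4 of the 8 were called lower (Cd40, Cd80, Cd83 and Icam1) and 0 higher, beside 17.1% of all genes lower and 17.6% higher. These counts took no account of library number. With that number as a block within genotype label, Cd86 was also called lower in both, and Cd274 in knockout-labelled cells. The median log2 change of the 8 was −0.86 in floxed-labelled and −0.43 in knockout-labelled cells, and the median over all genes tested lay within 0.01 of 0 in both. In bulk RNA, fewer cells carrying a transcript and less of it per cell cannot be told apart. With the 3 floxed-labelled libraries numbered 1 left out, the same 6 genes were called, and 0 of the 8 were called with BMP4 or for a difference in response to either factor.

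**Figure D2:**
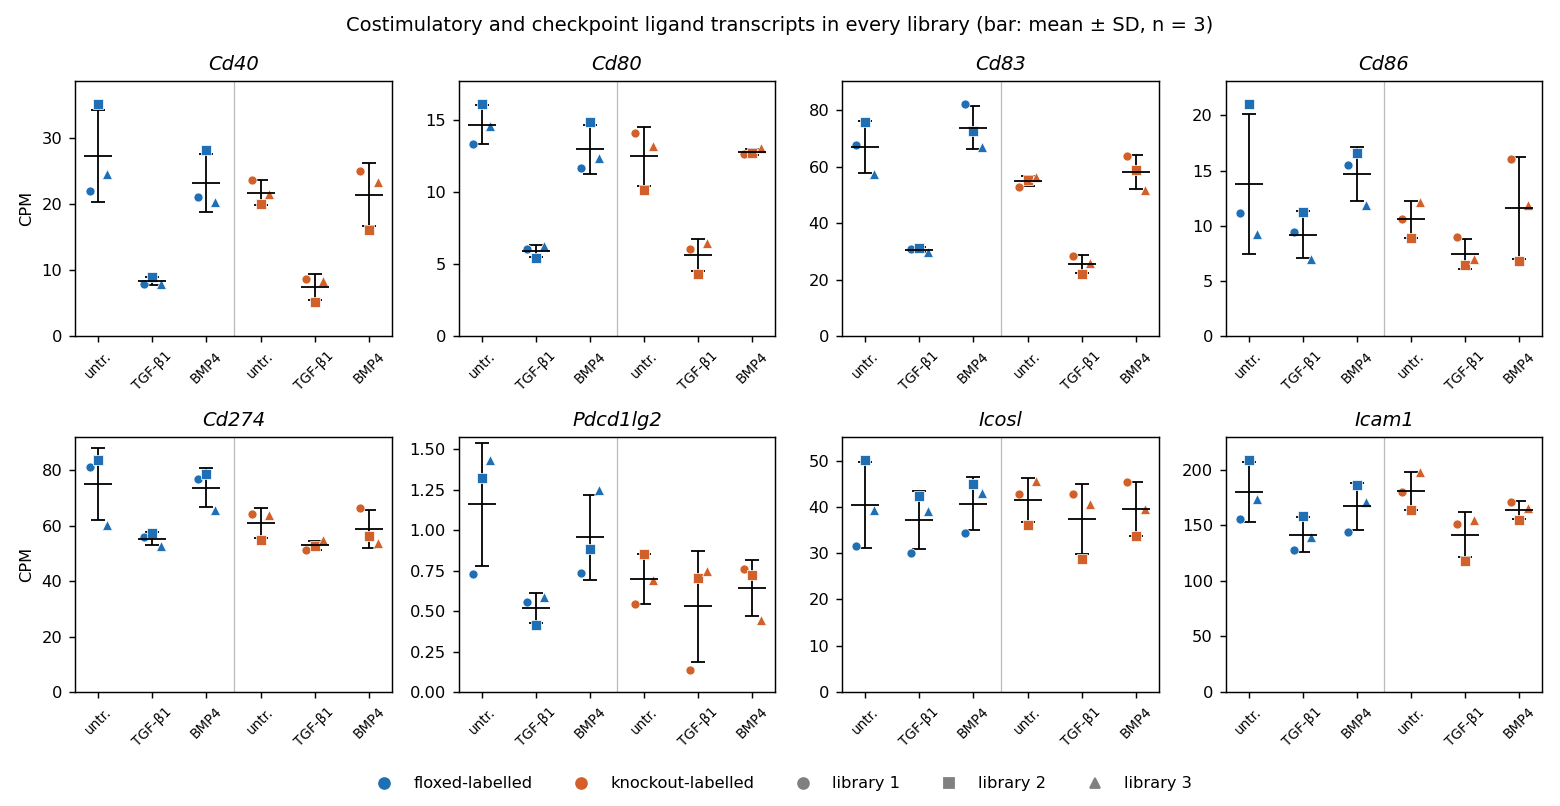
CPM of each of the 8 ligand genes (linear axes from 0) in the 18 libraries, by treatment (untr. is untreated), with the mean and SD of 3 libraries as bars, colour for genotype label and symbol for library number. Cd40, Cd80 and Cd83 are lower in every TGF-β1 library than in any untreated or BMP4 library of either genotype label.

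Cd40 fell the furthest. Its CPM in untreated floxed-labelled libraries 1 to 3 was 22.1, 35.1 and 24.5, and with TGF-β1 7.96, 9.01 and 7.96. All 3 treated libraries sat close together, far under the lowest untreated one. The log2 change was −1.71 (SE 0.20, edgeR adjusted p = 1.18e-06), a level 0.306 times the untreated one with a 95% interval of 0.229 to 0.409. In knockout-labelled cells Cd40 went from 23.7, 19.95 and 21.55 CPM to 8.75, 5.17 and 8.37, again with no overlap, a log2 change of −1.56 (SE 0.21, edgeR adjusted p = 8.04e-06). CD40 is the receptor through which helper T cells license antigen-presenting cells.

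Cd83 fell in both genotype labels. Untreated floxed-labelled libraries held 67.8, 75.6 and 57.3 CPM and TGF-β1-treated ones 31.0, 31.3 and 29.7, so the treated libraries differed from one another by far less than from the untreated. The log2 change was −1.13 (SE 0.10, edgeR adjusted p = 3.48e-08). Knockout-labelled cells went from 52.8, 55.3 and 56.2 CPM to 28.5, 22.2 and 26.0, a log2 change of −1.11 (SE 0.11, edgeR adjusted p = 8.66e-08), with groups well apart.

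The B7 pair separated in how firmly they moved. Floxed-labelled libraries 1 to 3 held 13.4, 16.1 and 14.6 CPM of Cd80 before and 6.07, 5.44 and 6.24 CPM after TGF-β1, a log2 change of −1.31 (SE 0.14, edgeR adjusted p = 4.36e-07). In knockout-labelled cells it was at 14.1, 10.1 and 13.2 CPM and then at 6.08, 4.36 and 6.45 CPM, a log2 change of −1.15 (SE 0.15, edgeR adjusted p = 4.70e-06). Every treated library was below every untreated one in both genotype labels. Cd86 was spread widely before treatment, at 11.1, 21.0 and 9.25 CPM in floxed-labelled libraries, and its treated values of 9.41, 11.2 and 6.99 CPM overlapped them. In knockout-labelled cells it was at 10.6, 8.91 and 12.2 CPM untreated and 9.02, 6.43 and 6.98 CPM treated, with overlap in a single library. Its log2 change of −0.59 in floxed-labelled cells (SE 0.29, edgeR adjusted p = 0.130) and −0.51 in knockout-labelled cells (SE 0.31, edgeR adjusted p = 0.225) did not pass. Libraries with the same number deviated together within a genotype label, and with the library number as a block Cd86 was called lower in both (log2 change −0.56, edgeR adjusted p = 0.00335, and −0.51, edgeR adjusted p = 0.0164). Leaving out floxed-labelled untreated library 3 (log2 change −0.81, edgeR adjusted p = 0.0448) also brought Cd86 past the threshold in floxed-labelled cells. Testing without a low-count filter did so too (edgeR adjusted p = 5.93e-05), although the log2 change stayed at −0.59. In knockout-labelled cells so did no filter (−0.48, edgeR adjusted p = 0.00415) or fitting only the groups compared (−0.51, edgeR adjusted p = 0.0321).

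Of the PD-1 ligands, Cd274 changed little and Pdcd1lg2 was scarce. Floxed-labelled libraries held 81.2, 83.9 and 60.1 CPM of Cd274 before and 56.0, 57.5 and 52.7 CPM after TGF-β1, and the latter lay just below the lowest of the former. The log2 change was −0.44 (SE 0.11, edgeR adjusted p = 0.00278), and −0.39 (edgeR adjusted p = 0.0422) without the libraries numbered 1. In knockout-labelled cells Cd274 was at 64.1, 55.0 and 64.0 CPM and then at 51.3, 52.8 and 54.8 CPM, with a log2 change of −0.20 (SE 0.11, edgeR adjusted p = 0.162). That comparison passed with the library number as a block (log2 change −0.20, edgeR adjusted p = 0.0260) and when only the 2 groups compared were fitted (−0.21, edgeR adjusted p = 0.0404). Pdcd1lg2 had 17, 28 and 27 counts in untreated floxed-labelled libraries, or 0.728, 1.32 and 1.44 CPM, and 10, 10 and 14 counts, or 0.557, 0.415 and 0.586 CPM, with TGF-β1. Its call there (log2 change −1.15, SE 0.41, edgeR adjusted p = 0.0394, and −1.45, edgeR adjusted p = 0.0378, without the libraries numbered 1) was lost on leaving out floxed-labelled untreated library 2 (edgeR adjusted p = 0.117) or 3 (0.128), or TGF-β1 library 1 (0.0704), 2 (0.125) or 3 (0.0646). In knockout-labelled cells its 9, 14 and 11 counts before and 2, 13 and 14 counts after treatment overlapped, the 2 counts being under the floor (log2 change −0.34, SE 0.46, edgeR adjusted p = 0.619).

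Icosl did not pass the test and Icam1 fell slightly. Icosl was at 31.6, 50.2 and 39.4 CPM in untreated and 30.1, 42.3 and 39.1 CPM in TGF-β1-treated floxed-labelled libraries. The corresponding knockout-labelled values were 42.9, 36.2 and 45.5 CPM and 42.7, 28.8 and 40.6 CPM, so both pairs of groups overlapped. The intervals of its log2 change in the fit without a block, −0.47 to 0.24 and −0.52 to 0.21, spanned 0 (edgeR adjusted p = 0.672 and 0.545). Taken by library number, each treated library was below its untreated counterpart, in some cases by very little. With the library number as a block Icosl was not called either. Icam1 was at 156.0, 209.1 and 174.2 CPM in untreated and 127.7, 158.3 and 139.5 CPM in treated floxed-labelled libraries, where 1 treated library exceeded the lowest untreated one. In knockout-labelled cells it was at 180.5, 164.3 and 198.0 CPM and then at 151.5, 118.1 and 154.7 CPM, without overlap. Its log2 changes of −0.34 (SE 0.12, edgeR adjusted p = 0.0315) and −0.36 (SE 0.12, edgeR adjusted p = 0.0251) both passed. Leaving out 1 library could lose either call, in some cases with the log2 change hardly moved. The floxed-labelled call was lost without untreated library 2 (log2 change −0.22, edgeR adjusted p = 0.200) or TGF-β1 library 1 (−0.28, 0.129) or 3 (−0.34, 0.0789). The knockout-labelled call was lost without untreated library 1 (−0.35, edgeR adjusted p = 0.0664) or 3 (−0.29, 0.116) or TGF-β1 library 2 (−0.23, 0.163). Both calls held with the library number as a block. The floxed-labelled call also held without all libraries numbered 1 (−0.37, edgeR adjusted p = 0.0366).

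The unequal falls changed the order of the levels. Cd83 exceeded Cd274 per length in untreated cells, at ratios of 1.18, 1.27 and 1.34 in floxed-labelled and 1.16, 1.42 and 1.24 in knockout-labelled libraries. With TGF-β1 the ratios were 0.780, 0.767 and 0.795, and 0.782, 0.592 and 0.668, so PD-L1 transcript came second to Icam1 in both genotype labels. Cd40 and Icosl, close to each other before treatment, drew apart: the ratio of Cd40 to Icosl was 0.947, 0.949 and 0.844 in untreated and 0.359, 0.289 and 0.276 in TGF-β1-treated floxed-labelled libraries. In knockout-labelled cells it was 0.750, 0.748 and 0.643 and then 0.278, 0.244 and 0.280. Cd80 likewise became scarcer relative to Cd274, from a mean ratio of 0.195 ± 0.0386 to 0.105 ± 0.0117 (SD, n = 3) in floxed-labelled and from 0.199 ± 0.0175 to 0.104 ± 0.0202 in knockout-labelled cells. The ratios within a library do not depend on how libraries were scaled.

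BMP4 changed none of the 8 in either genotype label by this test. In floxed-labelled cells 0 members were called, where 0% of all genes were called although 1103 genes had an unadjusted p under 0.05, none of them a member. In knockout-labelled cells 0 members were called beside 0.572% of all genes, and 0 members had an unadjusted p under 0.05. DESeq2 also called 0 of the 8 in either. The log2 changes ran from −0.26 (Pdcd1lg2, floxed-labelled) to 0.14 (Cd83, floxed-labelled). Cd83 was at 82.1, 72.6 and 66.8 CPM with BMP4 in floxed-labelled and 63.6, 58.7 and 51.9 CPM in knockout-labelled libraries, overlapping the untreated values in both. Cd40 was at 21.0, 28.2 and 20.4 CPM and at 24.9, 16.1 and 23.3 CPM. The 95% interval of its log2 change was −0.62 to 0.15 in floxed-labelled and −0.42 to 0.38 in knockout-labelled cells, which does not reach the change seen with TGF-β1.

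**Figure D3:**
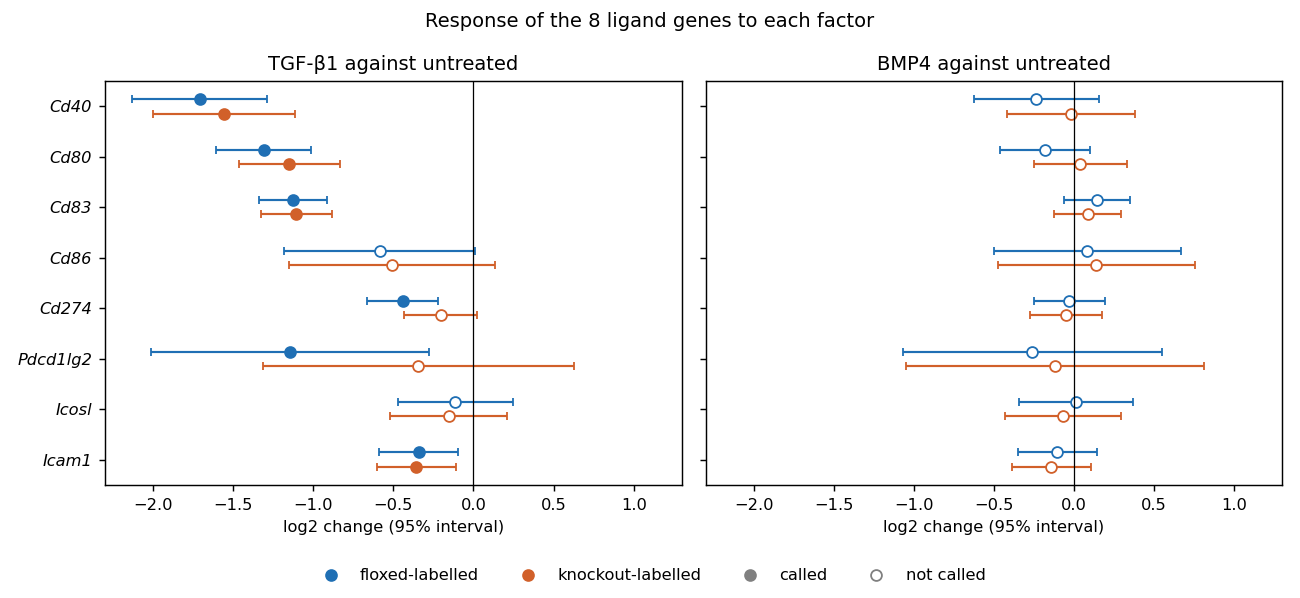
Log2 change (points) with its 95% interval (lines) of the 8 ligand genes for TGF-β1 (left) and BMP4 (right) against untreated cells, by genotype label, with filled points for adjusted p under 0.05. With TGF-β1, Cd40, Cd80 and Cd83 have intervals wholly below −0.8 in both genotype labels, and with BMP4 every interval spans 0.

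Set directly against BMP4-treated cells, TGF-β1-treated ones again had less Cd40, Cd80 and Cd83. The doses of the factors differed, and the same TGF-β1 libraries enter as above. In floxed-labelled cells 4 of the 8 were called lower (Cd40, Cd80, Cd83 and Cd274) and 0 higher, with 16.9% of all genes lower and 17.9% higher, and the same 4 were called without the libraries numbered 1. In knockout-labelled cells the 3 genes Cd40, Cd80 and Cd83 were lower and 0 higher, with 16.2% and 16.4% of all genes. The log2 differences were −1.47 (SE 0.20) and −1.54 (SE 0.21) for Cd40, −1.13 (SE 0.14) and −1.19 (SE 0.15) for Cd80, and −1.27 (SE 0.10) and −1.19 (SE 0.11) for Cd83 in floxed-labelled and knockout-labelled cells. With the library number as a block, 5 were called in knockout-labelled cells, since Cd86 (log2 difference −0.61, edgeR adjusted p = 0.00315) and Icam1 (−0.22, edgeR adjusted p = 0.000735) were added. The same 2 genes were added in floxed-labelled cells (Cd86 −0.69, edgeR adjusted p = 0.000350; Icam1 −0.24, edgeR adjusted p = 0.000316). Both were also added in both genotype labels without the low-count filter (edgeR adjusted p from 3.11e-06 to 0.00645). With 1 library left out and no block, Cd86 passed without knockout-labelled BMP4 library 2 (edgeR adjusted p = 0.0192), and Icam1 without floxed-labelled BMP4 library 1 (edgeR adjusted p = 0.0491).

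Between the genotype labels 0 of the 8 were called at any treatment, where 2.39% of all genes were called untreated, 0.388% with TGF-β1 and 0.0272% with BMP4. By unadjusted p under 0.05 the numbers of members were 2, 1 and 2, beside 2577, 1837 and 1161 of the 14684 genes tested. DESeq2 called 0 of the 8. For Cd83, knockout-labelled libraries lay below all floxed-labelled ones untreated, with TGF-β1 and with BMP4, at log2 differences of −0.29 (SE 0.10, edgeR adjusted p = 0.129), −0.27 (SE 0.11, edgeR adjusted p = 0.301) and −0.35 (SE 0.10, edgeR adjusted p = 0.360). Of the 14684 genes tested, 1357, 1472 and 914 lay apart in this direction at these treatments. Same-numbered libraries of a genotype label deviated together, so the 3 treatments are not independent repeats. Cd274 differed by −0.30 untreated (SE 0.11, edgeR adjusted p = 0.137) and by −0.32 with BMP4 (SE 0.11, edgeR adjusted p = 0.440), with libraries that overlapped. Without floxed-labelled untreated library 3 the untreated difference of Cd274 passed (log2 −0.45, edgeR adjusted p = 0.0349). Testing without a low-count filter called Cd40, Cd83 and Cd274 lower in untreated and Cd83 and Cd274 lower in BMP4-treated knockout-labelled cells (edgeR adjusted p from 0.000685 to 0.0315). With the floxed-labelled libraries numbered 1 left out, Cd83 differed by −0.29, −0.26 and −0.26 and none of the 8 was called.

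The responses themselves were not shown to differ between the genotype labels. For TGF-β1, the interaction test called 0 members and 1 gene in all (0.00681% of genes), with 493 genes and 0 members at an unadjusted p under 0.05. For BMP4 it called 0 genes (0%), with 839 genes and 0 members at an unadjusted p under 0.05, and DESeq2 called 0 members in either. For Cd83 the TGF-β1 response differed by 0.02 (95% interval −0.29 to 0.33) and for Icam1 by −0.01 (−0.36 to 0.33). The interval was wider for Cd40, at 0.15 (−0.46 to 0.77), and widest for the scarce Pdcd1lg2, at 0.80 (−0.51 to 2.11), or 1.11 without the floxed-labelled libraries numbered 1. Cd274, called only in floxed-labelled cells by the fit of all 18 libraries without a block, had a difference of 0.24 (−0.08 to 0.55).

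Within groups, several of the 8 genes moved together with the library number. Floxed-labelled library 2 was above its group mean in all 3 treatments for Cd40, Cd86, Cd274, Icosl and Icam1. For Cd86 its log2 deviation reached 0.69. Knockout-labelled library 2 was below its group mean in all 3 treatments for Cd40, Cd80, Cd86, Cd274, Icosl and Icam1, with Cd86 at −0.67 at its lowest. Floxed-labelled library 1, one of those with little Lyz2, was below the mean in all 3 treatments for Cd40, Icosl and Icam1 and above it for Cd83 and Cd274. What the number stands for is not given in the labels.

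**Figure D4:**
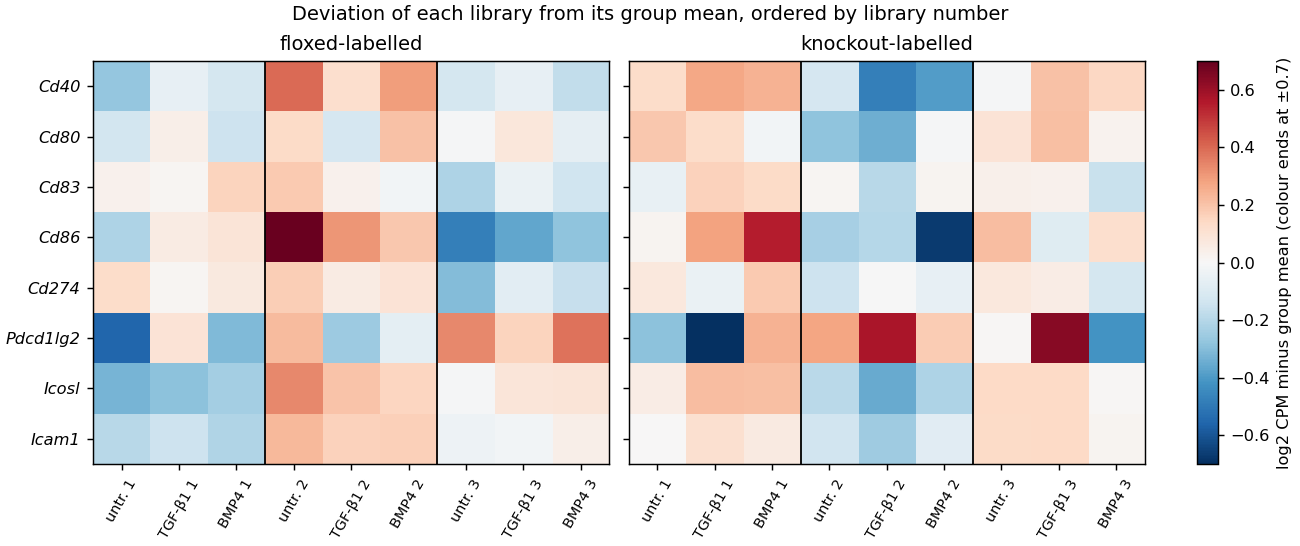
Log2 CPM of each library minus its group mean (colour, ending at ±0.7) for the 8 ligand genes, with libraries ordered by number and treatment within each genotype label. Floxed-labelled library 2 is above its group mean and knockout-labelled library 2 below it for Cd40, Cd86, Icosl and Icam1 at every treatment.

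Over the 18 libraries the profiles of Cd40, Cd80 and Cd83 resembled each other most, with Pearson's r of log2 CPM of 0.974 for Cd40 and Cd80, 0.942 for Cd40 and Cd83 and 0.932 for Cd80 and Cd83. Icosl and Icam1 came to 0.830, and Pdcd1lg2 and Icosl were least alike at 0.0789. These values describe the same libraries, of which the 6 with TGF-β1 lay below all others for Cd40, Cd80 and Cd83. For Cd86, Cd274, Pdcd1lg2, Icosl and Icam1 the libraries with TGF-β1 overlapped the others. Among 12238 genes, those most like Cd40 were Ptpn6, which encodes the phosphatase SHP-1 (r = 0.992), Arl6ip5 (0.988) and Tlr1 (0.983), a lipopeptide receptor subunit. Those most like Cd80 were the C-type lectin genes Clec4a1 (0.978) and Clec4a2 (0.975), with Tmem8 (0.976) between them. For Cd83 they were Clec2d (0.985), Evi2a (0.977) and the inflammatory caspase gene Casp4 (0.975). Clec4a1 went from 422.9 to 105.2 mean CPM with TGF-β1 in floxed-labelled and from 397.7 to 103.5 in knockout-labelled cells. Cd86 was most like Ly86 (0.934), which encodes the RP105 partner MD-1, Adgre1 (0.918) and Trim30d (0.906). Cd274 was most like Fcrl5 (0.900), Snhg15 (0.889) and Fbxw17 (0.887), and Pdcd1lg2 like Slc25a11 (0.869), Tnfsf9 (0.833) and Creld1 (0.822). Icosl was most like Tspan3 (0.912), Ly6e (0.894) and Agpat3 (0.886). Icam1 was most like Pou2f2 (0.926), which encodes Oct-2, Tlr9 (0.925), the receptor for CpG DNA, and Prkcb (0.924), which encodes protein kinase C beta.

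Other ligands of T cells moved in both directions. Of 23 further genes of the B7, TNF superfamily and related families, 17 were tested, and TGF-β1 raised 5 and lowered 8 in floxed-labelled and raised 4 and lowered 8 in knockout-labelled cells. Over all genes tested, as above, 17% were raised and 16% lowered in the former and 17.6% and 17.1% in the latter. The median log2 change of the 17 was −0.39 and −0.16, beside medians within 0.01 of 0 over all genes. Cd276, which encodes the B7 family member B7-H3, rose from 2.84 ± 0.581 to 15.0 ± 1.88 CPM in floxed-labelled (log2 change 2.40, SE 0.18, edgeR adjusted p = 1.83e-09) and from 3.41 ± 0.589 to 17.4 ± 1.02 CPM in knockout-labelled cells (2.35, SE 0.18, edgeR adjusted p = 2.88e-09). It thus moved opposite to the B7 gene Cd80. Lgals9, which encodes galectin-9, rose from 112.9 ± 6.55 to 197.4 ± 14.1 CPM and Tnfsf14, which encodes LIGHT, from 3.36 ± 0.758 to 6.06 ± 0.732 CPM in floxed-labelled cells, and both were called higher in knockout-labelled cells too. Tnfrsf14, which encodes HVEM, fell from 63.4 ± 5.88 to 25.8 ± 1.47 CPM (log2 change −1.30, SE 0.10, edgeR adjusted p = 2.66e-09). Vsir, which encodes the checkpoint ligand VISTA and was the most abundant of these, fell from 554.5 ± 45.2 to 372.7 ± 23.3 CPM, and Cd47, the signal that holds back phagocytosis, from 323.8 ± 17.3 to 220.5 ± 9.32 CPM. All 3 were called lower in knockout-labelled cells as well.

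Among 10 receptors and partners of the 8 ligands, 7 were tested, of which 1 was called higher and 2 lower in floxed-labelled and 1 higher and 1 lower in knockout-labelled cells, beside the shares of all genes just given. Cd28 mRNA, whose protein is the T cell receptor for CD80 and CD86, was present in these macrophages and fell the most of all genes shown here. It went from 42.7 ± 4.99 to 4.97 ± 0.970 CPM in floxed-labelled (log2 change −3.11, SE 0.20, edgeR adjusted p = 3.48e-10) and from 46.5 ± 7.08 to 6.06 ± 1.51 CPM in knockout-labelled cells (−2.93, SE 0.21, edgeR adjusted p = 9.49e-10). The T cell genes Cd3d, Cd3e and Cd3g did not exceed 0.236, 0.0838 and 0.200 CPM in any library. Icos was called lower in floxed-labelled cells, from 0.818 ± 0.144 to 0.237 ± 0.135 CPM (log2 change −1.81, edgeR adjusted p = 0.00212), against −0.93 in knockout-labelled cells (edgeR adjusted p = 0.105), and the difference between these responses was not called. The treated mean of Icos in floxed-labelled cells was close to the detection floor of 0.122 to 0.198 CPM, which limits its fold change. Itgax, the CD11c integrin chain, rose from 4.05 ± 0.995 to 7.26 ± 0.401 CPM and from 2.29 ± 0.576 to 4.26 ± 0.440 CPM. The LFA-1 chain genes Itgal and Itgb2 and the further integrin gene Itgam, named after their values were seen, did not pass. Itgal, the alpha chain of LFA-1, was at 153.1 ± 43.0 CPM before and 208.9 ± 64.0 CPM after TGF-β1 in floxed-labelled cells (log2 change 0.45, edgeR adjusted p = 0.236) and at 174.4 ± 43.9 and 282.4 ± 60.6 CPM in knockout-labelled cells (0.69, edgeR adjusted p = 0.0595). Its partner Itgb2 was at 1067 ± 54.8 CPM untreated and 1103 ± 17.4 CPM treated in floxed-labelled cells, and Itgam at 232.0 ± 3.14 and 230.3 ± 4.11 CPM.

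**Figure D5:**
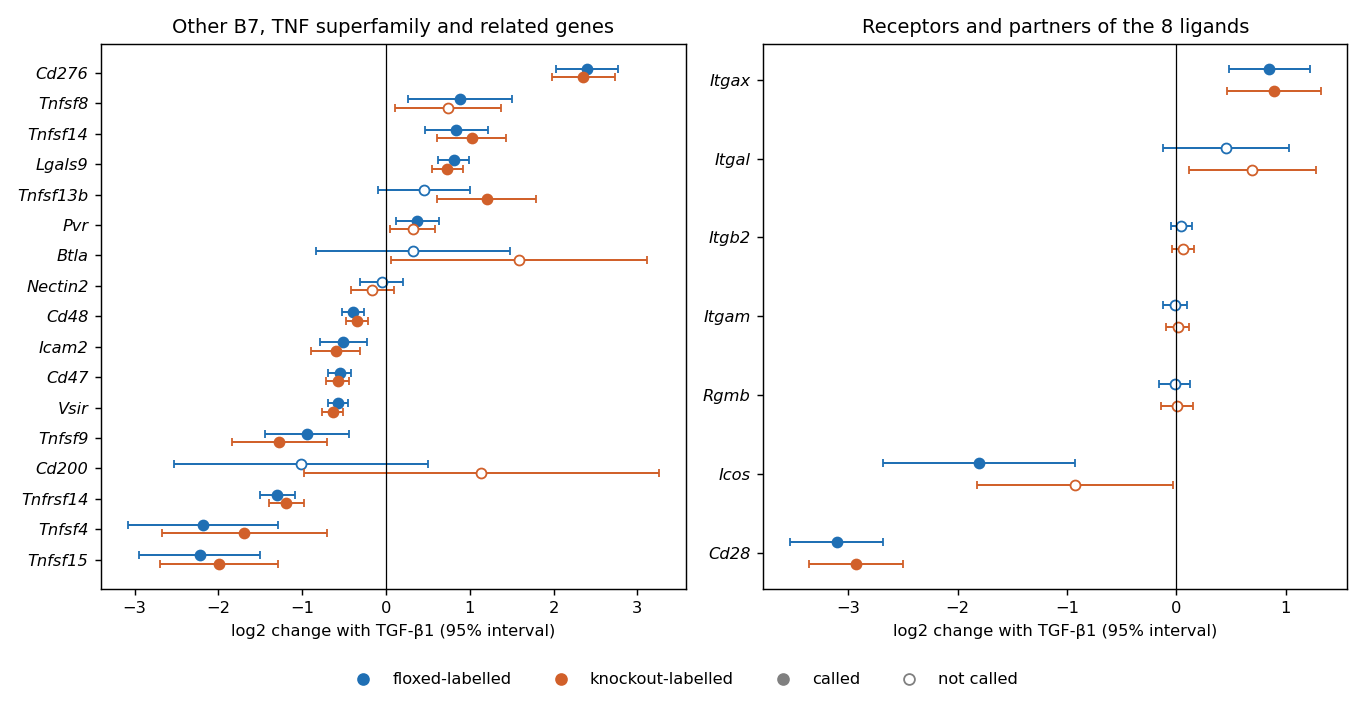
Log2 change with TGF-β1 against untreated cells (points) and its 95% interval (lines) for the tested genes of the other ligand families (left) and of the receptors and partners (right), by genotype label, with filled points for adjusted p under 0.05. Cd276 rises and Cd28 falls furthest in both genotype labels.

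Of 20 genes of CD40 and NF-κB signalling, TGF-β1 raised 4 and lowered 3 in floxed-labelled and raised 4 and lowered 5 in knockout-labelled cells, with medians of −0.02 and 0.00 on the log2 scale. These counts were near the shares over all genes, 17% higher and 16% lower in floxed-labelled and 17.6% and 17.1% in knockout-labelled cells. Traf3, a brake on noncanonical NF-κB signalling that binds CD40, rose from 53.0 ± 4.86 to 89.9 ± 3.05 CPM in floxed-labelled cells (log2 change 0.76, edgeR adjusted p = 8.49e-08). Map3k14, which encodes the noncanonical kinase NIK, rose from 45.1 ± 1.62 to 62.7 ± 1.85 CPM, and the adaptor gene Traf6 from 37.9 ± 2.18 to 47.8 ± 3.11 CPM. Nfkb2, which encodes p100, fell from 167.1 ± 12.4 to 136.9 ± 3.12 CPM, the inhibitor gene Nfkbie from 44.0 ± 3.83 to 30.9 ± 3.71 CPM, and the adaptor gene Traf1 from 21.9 ± 0.869 to 16.0 ± 0.647 CPM. All 6 were called in the same direction in knockout-labelled cells.

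Genes of the interferon-gamma receptor and of the IRF family moved both ways with TGF-β1 in floxed-labelled cells. Ifngr1, the ligand-binding chain of the interferon-gamma receptor, fell from 302.7 ± 22.6 to 165.0 ± 13.1 CPM (log2 change −0.88, SE 0.07, edgeR adjusted p = 8.77e-09), while the partner chain gene Ifngr2 rose from 178.5 ± 6.73 to 227.8 ± 17.9 CPM and the kinase gene Jak2 from 62.6 ± 6.59 to 136.7 ± 12.9 CPM. Irf1, a known activator of Cd274, fell from 82.5 ± 3.37 to 55.0 ± 6.09 CPM and Irf2 from 74.2 ± 1.95 to 55.9 ± 3.19 CPM, whereas Irf8 rose from 274.5 ± 29.9 to 407.1 ± 34.1 CPM. These 6 genes were called in the same direction in knockout-labelled cells. In the 5-gene list of the interleukin-4 receptor and STAT6, on which Pdcd1lg2 is known to depend, Il4ra rose from 131.0 ± 10.6 to 168.7 ± 10.1 CPM and Il13ra1 fell from 19.8 ± 2.00 to 15.4 ± 1.44 CPM in floxed-labelled cells, both with calls in knockout-labelled cells. They were the 1 higher and 1 lower call of that list in floxed-labelled cells, and knockout-labelled cells had 2 higher and 1 lower. A further list held 5 genes of surface turnover, not all of them tied to these ligands. Of these, Cmtm6, which protects PD-L1 from degradation, fell from 219.2 ± 14.2 to 162.3 ± 6.38 CPM. The related Cmtm4 rose from 48.2 ± 2.49 to 64.3 ± 2.09 CPM, and both were called in the same direction in knockout-labelled cells. Of those 5, 1 was called higher and 1 lower in floxed-labelled and 2 higher and 2 lower in knockout-labelled cells. The counts of both 5-gene lists stand beside 17% of all genes higher and 16% lower in floxed-labelled and 17.6% and 17.1% in knockout-labelled cells. With BMP4, edgeR called 0 of the 104 tested genes of the 11 lists in either genotype label. At an unadjusted p under 0.05 there were 3 in floxed-labelled and 8 in knockout-labelled cells, beside 1103 and 1798 of all 14684 genes tested.

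Genes of other cell types that could carry the ligands were also measured, and the counts of calls below stand beside 17% of all genes higher and 16% lower in floxed-labelled and 17.6% and 17.1% in knockout-labelled cells. The 12 dendritic cell markers summed to 9.55 to 13.7 CPM in untreated and 8.46 to 10.0 CPM in TGF-β1-treated floxed-labelled libraries, and to 8.85 to 10.4 and 6.53 to 8.89 CPM in knockout-labelled ones. Of the 10 tested, 1 rose and 1 fell in floxed-labelled and 2 fell in knockout-labelled cells. Batf3, a transcription factor of cross-presenting dendritic cells, fell from 4.25 ± 0.826 to 0.945 ± 0.383 CPM in the former. Xcr1, also a gene of such cells, rose there (log2 change 1.43, SE 0.41, edgeR adjusted p = 0.0106). In knockout-labelled cells Xcr1 was not called (0.87, edgeR adjusted p = 0.128). The defining genes Flt3, Zbtb46 and Ccr7 stayed at or below 1.21, 0.943 and 0.851 CPM in every library. The 10 B and T cell markers summed to 24.3 to 28.4 CPM untreated and 16.1 to 21.3 CPM with TGF-β1 in floxed-labelled libraries, and to 22.1 to 25.6 and 12.7 to 17.5 CPM in knockout-labelled ones, nearly all of it from Cd79b and Cd4, with Pax5 at or below 0.128 CPM. Of the 4 tested, edgeR called 0 in floxed-labelled cells (2 at an unadjusted p under 0.05) and 2, Cd79b and Cd4, lower in knockout-labelled cells. Of the macrophage markers, 1 of 8 rose (Mertk) and 1 fell in both genotype labels, the endotoxin coreceptor gene Cd14 going from 481.1 ± 38.6 to 224.3 ± 15.5 CPM in floxed-labelled cells. Of 6 tested neutrophil and mast cell markers 1 rose (Cxcr2), and of 6 tested fibroblast and endothelial markers 1 rose (Cdh5), in both genotype labels. The 10 neutrophil and mast cell markers summed to 76.0 to 107 CPM untreated and 93.6 to 126.3 CPM with TGF-β1 in floxed-labelled libraries, and to 61.9 to 86.2 and 64.5 to 109.4 CPM in knockout-labelled ones, with S100a9, a neutrophil and monocyte gene, at 24.8 to 62.5 CPM over all libraries. The 8 fibroblast and endothelial markers summed to 3.08 to 5.44 and 4.12 to 14.1 CPM in floxed-labelled and to 3.26 to 4.09 and 4.42 to 5.77 CPM in knockout-labelled libraries. The part of these genes in the falls of Cd40, Cd80 and Cd83 was not tested.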

How the data were processed

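The count columns hold read counts per gene deposited by the authors. Per the submitters' processing notes the build was mm10 (GRCm38.p6) and the tools named were TopHat2 2.0.9, HTSeq 0.6.1 and Cufflinks 2.1.1. Counts were used as deposited. FPKM values are those the authors deposited and served only to compare levels between genes. The strand setting of the counting is not given in the sources used here. The one gene overlapping a member, the antisense Gm47079 at Icam1, had 0 to 6 counts. A further 78 columns of per-sample values were not used. The software was edgeR 4.0.16 under R 4.3.3. Low genes were removed by filterByExpr using the 6 groups, which kept 14684 genes, and TMM factors lay between 0.978 and 1.02. A model of the 18 libraries with a mean for each group (12 residual degrees of freedom) was tested by the two-sided quasi-likelihood F statistic, and p-values were adjusted by Benjamini-Hochberg across the 14684 genes. No 2 libraries of a group were repeats of each other: their counts differed beyond sampling, at a chi-square of 3.694 to 28.65 for each degree of freedom. On simulated counts for 14387 genes with the TGF-β1 comparison of floxed-labelled cells, 75% of genes changed 2-fold were recovered.

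The labels number the libraries 1 to 3 in every group. Same-numbered libraries of a genotype label deviated together in each of 18 pairs (correlation 0.186 to 0.532) and those of different genotype labels did not (−0.195 to 0.124), so a fit with the number as a block within genotype label was taken as pairing the libraries. The other alternatives were size factors by median of ratios, total counts, no filter, a filter at 1 CPM on the mean, DESeq2 1.42.0, only the groups compared, a block over all groups, 15 libraries without the floxed-labelled ones numbered 1, and each library left out. The members and all gene lists were chosen with earlier results of these data known. Besides the members, the text names up to 3 called genes per direction of each list by lowest adjusted p, and for each member the 3 genes of highest Pearson correlation, where the mean CPM reached 1. Some listed genes and the counts of 1 list are not reported here. Promoter windows hold the 250 bases before RefSeq start sites. Log2 CPM used a prior count of 2.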

Additional observations from a re-analysis of the deposited data

How the results depend on the processing

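Of 247 recomputed values of members called in the report, 236 were still called, 11 were lost (all of Icam1 or Pdcd1lg2, on leaving out 1 library) and 0 changed sign. Of 1110 values not called, 25 became called, and 112 not called in either fit changed sign. The calls of Cd40, Cd80 and Cd83 with TGF-β1 held under every alternative. The replicate block within genotype label changed no call of a member beyond those given in the report. Differences between genotype labels at a given treatment could not be fitted with it. It gave 53 genes for BMP4 in floxed-labelled cells, 472 for BMP4 in knockout-labelled cells, 7 for the difference of the BMP4 responses, and 5 members for TGF-β1 against BMP4 in knockout-labelled cells. The replicate block over all groups gave 97 genes between genotype labels with TGF-β1, 10 with BMP4, and 0 for the difference of the TGF-β1 responses. Without the low-count filter, the genes called were 69 (BMP4, floxed-labelled), 240 (BMP4, knockout-labelled), 817, 394 and 287 (between genotype labels untreated, with TGF-β1 and with BMP4), and 8 and 48 (differences of the TGF-β1 and BMP4 responses). The same setting called 5 members for TGF-β1 against BMP4 in knockout-labelled cells and, between genotype labels, 3 untreated (Cd40, Cd83, Cd274) and 2 with BMP4 (Cd83, Cd274). DESeq2 gave 14 and 181 genes for BMP4 in floxed-labelled and knockout-labelled cells, 539, 189 and 34 between genotype labels, and 15 for the difference of the BMP4 responses. Fitting only the groups compared gave 2 for BMP4 in knockout-labelled cells, 29, 19 and 0 between genotype labels, and 0 for the difference of the TGF-β1 responses. Cd86 was called under it with TGF-β1 in knockout-labelled cells and against BMP4 in floxed-labelled cells, and Cd274 with TGF-β1 in knockout-labelled cells. The 15 libraries gave 1 for BMP4 in floxed-labelled cells, 39 between genotype labels untreated, 2 with TGF-β1, and 0 for the difference of the TGF-β1 responses. Size factors by median of ratios gave 30 between genotype labels with TGF-β1, and total counts gave 2 with BMP4 and 0 for the difference of the TGF-β1 responses. The causes were not tested.

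Leaving out 1 library gave 0 to 1 genes for BMP4 in floxed-labelled and 4 to 112 in knockout-labelled cells, 27 to 613, 0 to 16 and 1 to 5 between genotype labels (untreated, TGF-β1, BMP4), 0 to 1 for the difference of the TGF-β1 responses, and 0 to 1 members between genotype labels untreated. A group left with 2 libraries borrowed its spread from the others. The 2 to 28 counts per library of Pdcd1lg2 limit what can be said of it.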
